A study of Sus scrofa with 5 samples.

Results

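This report describes 10 genes that mark macrophages, LYZ, CD68, MSR1, TYROBP, AIF1, CSF1R, MRC1, PTPRC, MARCO and VSIG4, in a pig kidney placed in a human recipient, where each gene was counted on the pig genome and on the human genome. The genes were taken from a list of macrophage markers, and all 10 were found among 15235 symbols of the pig table and among 59385 symbols of the human table. LYZ had no count in any column of the pig table. A filter on low counts left 12620 pig and 18403 human genes for testing, with 9 of the 10 in each table: LYZ did not pass in the pig table and CD68 did not pass in the human table.

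The tested libraries were 3 biopsies of the xenograft in the second case of the study, 1 each at 12, 24 and 48 h after transplantation. They were set against 2 libraries of untransplanted control kidney at 0 h, control replicates 1 and 2. Gene expression was measured by bulk sequencing of total RNA, depleted of ribosomal RNA, from homogenised kidney core biopsies. The labels give the organism as pig and name no genotype, strain or age of the donor pig and no drug. All 3 biopsies come from a single graft and recipient, and nothing in the labels says that the controls came from separate animals, so the p-values measure only the spread between these 5 libraries. The comparison of xenograft with control pools the 3 times, so its spread also holds change with time.

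Macrophages live in the kidney between the tubules and are also replaced from monocytes in the blood. They depend on signals through the receptor CSF1R, take up debris and microbes through scavenger and lectin receptors, and break the cargo down in lysosomes. After transplantation a graft can hold macrophages of the donor, which carry the pig genome, and monocytes and macrophages of the recipient, which carry the human genome. In bulk RNA, fewer cells of a type and less RNA per cell cannot be told apart.

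Pig-table totals were 56129925 to 66169176 counts in the xenograft biopsies, against 65919506 and 71108823 in the controls. Human-table totals were 18766595 to 19735281 counts in the biopsies, against 15056467 and 13385437 in the controls. For every 100 counts of the pig table, the human table held 29.0 to 33.4 in the biopsies, against 22.8 and 18.8 in the controls, which had not been transplanted. Markers of kidney epithelium, which the recipient's blood should lack, summed in the human table to 1485 to 1884 counts in the biopsies, against 1142 and 1482 in the controls, when each library was scaled to 1000000 pig-table counts. UMOD alone had a mean of 1213 of these scaled counts in the biopsies, against 510 in the controls. Human-table counts therefore held a component that was present without any recipient, and the human-table level of each member is given beside its control value. Genes encoded by the mitochondrion took 11.8 to 14.5% of the pig-table counts in the biopsies, against 21.9 and 33.4% in the controls. A level below is a count divided by the pig-table total of the same library, in CPM, counts scaled to 1000000 pig-table counts, for both tables. Fold changes come from edgeR's quasi-likelihood test on the raw counts with TMM scaling, on the log2 scale as xenograft over control with ± its SE, and each adjusted p is the Benjamini-Hochberg value over all tested genes of that table. Ratios of mean levels are larger than those folds, since the scaling differs.

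In the pig table, 6 of the 9 tested members were higher in the xenograft than in control kidney at an adjusted p of at most 0.05, and 1 was lower. CD68, MRC1, MSR1, VSIG4, TYROBP and MARCO rose, AIF1 fell, and CSF1R and PTPRC did not pass the test. MARCO had 46 pig-table counts in all biopsies together, against 2 in the controls. It could pass the filter only through the biopsies, so its place among the 6 is a description. Across all tested pig genes, 18.5% were called higher and 19% were called lower. The median log2 fold change was 2.20 over the 9 members and 0.03 over all tested pig genes. In the human table, 9 of 9 tested members were higher and 0 were lower, where 19.3% of all tested human genes were called higher and 15.9% lower. The median log2 fold change was 5.37 over these 9 members and 0.05 over all tested human genes. A gene that the controls hardly express in the human table can pass the filter only through the biopsies, so the count of 9 is a description and CD68, with 16 human-table counts in all biopsies together, is the member left out. With the library sizes of the pig table in place of those of the human table, the median over all human genes was 0.36, 5496 genes were called higher and 1701 lower, against 3547 higher and 2917 lower with its own, and all 9 members remained higher.

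The level of a gene can also be read by whether the 3 biopsies lie apart from both controls. In the pig table, 7 of 9 tested members had every biopsy above both controls and 0 had every biopsy below, where 59% of all tested pig genes lay above and 12.6% below. All 9 tested in the human table lay above and 0 below, where 70.5% of all tested human genes lay above and 6.88% below. With 3 against 2 libraries, an exact permutation test cannot give a p below 0.1, so these counts carry no test.

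Markers of the kidney's own cells moved in the same libraries. Over all tested genes, 18.5% of pig genes were called higher and 19% lower, and 19.3% of human genes higher and 15.9% lower. Of 6 endothelial markers in the pig table, 3 were higher, 0 were lower and 3 did not pass, with a median log2 fold change of 1.07 and a summed level of 857 to 972 CPM in the biopsies, against 400.1 and 249.6 in the controls. Of 8 kidney epithelium markers in the pig table, 1 was higher, 5 were lower and 2 did not pass, with a median of -1.32, while their summed level was 6904 to 8789 CPM in the biopsies, against 8944 and 6995. UMOD, the 1 called higher, made up most of that sum in the biopsies, at a mean of 5131 CPM against 2139 in the controls. LRP2, among the 5 lower, had a mean of 914 CPM against 2662. The human table showed 2 of 6 endothelial markers higher and 0 lower, with a summed level of 106 to 127 CPM, against 64.1 and 35.3, and 0 of 8 epithelium markers higher and 5 lower, with a median of -1.49. The part of a changed mix of kidney cells in the members' values was not tested.

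**Figure D1:**
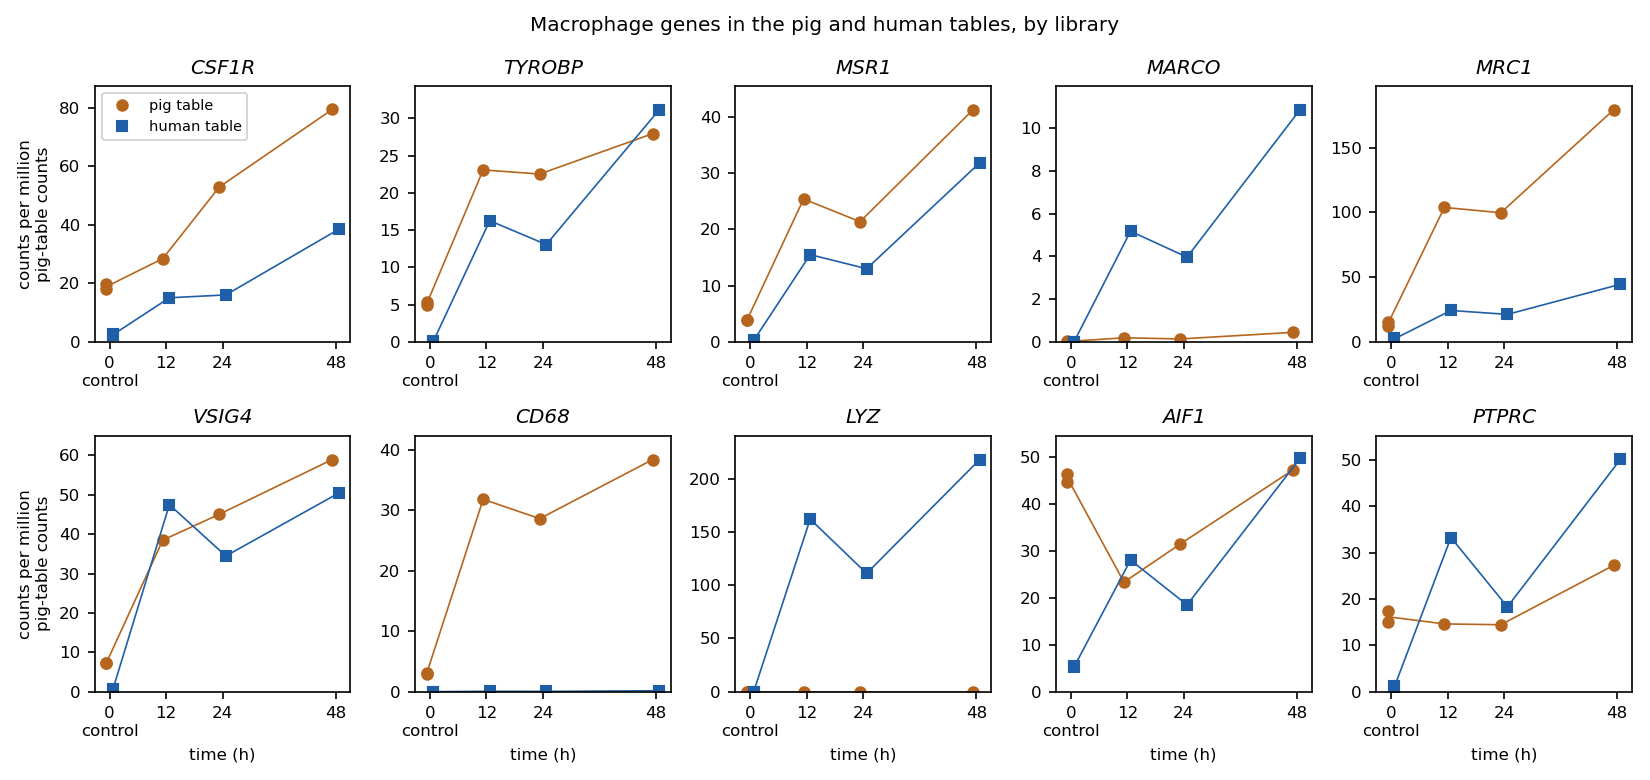
Levels of the 10 macrophage genes by library. The horizontal axis is time in hours, with the untransplanted controls at 0; the vertical axis is the level in CPM of pig-table counts; circles are pig-table values, squares are human-table values, each point is 1 library and lines join the mean of the controls to the biopsies. All 9 members with pig-table counts and all 10 members in the human table had their highest biopsy at 48 h, CD68 had almost no human-table counts and LYZ had no pig-table counts.

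CSF1R, the receptor for the growth factors CSF1 and IL34 on which macrophages depend for survival, had 1800, 3503 and 4460 pig-table counts at 12, 24 and 48 h, against 1298 and 1284 in control replicates 1 and 2. Its pig-table levels were 28.5, 52.9 and 79.5 CPM in the biopsies, against 19.7 and 18.1 in the controls. Each later biopsy stood above the earlier one, and the lowest biopsy stood above both controls. The pig-table log2 fold change was 1.003 ± 0.39 (edgeR adjusted p = 0.0903), which did not pass the test. It passed with DESeq2, at an adjusted p of 0.0199, and with the 12 h biopsy left out, at 1.30 and an edgeR adjusted p of 0.0019.

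Human-table counts of CSF1R were 953, 1062 and 2162 in the biopsies, against 167 and 165 in the controls, or 15.1, 16.0 and 38.5 CPM against 2.53 and 2.32. The 12 and 24 h biopsies lay close together, the 48 h biopsy was higher, and no biopsy overlapped a control. The human-table log2 fold change was 2.43 ± 0.41, or 5.38-fold (edgeR adjusted p = 0.00438). Without control replicate 1 the adjusted p was 0.054, and without control replicate 2 it was 0.0511, so the call rests on having both controls. In each control library CSF1R had 12.9 counts in the human table for every 100 in the pig table.

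Both ligands of this receptor were read in the same tables. CSF1, a growth factor made by many tissue cells, had pig-table levels of 71.9, 39.3 and 47.8 CPM in the biopsies, against 9.77 and 6.005 in the controls. It rose by 2.28 ± 0.29 on the log2 scale, or 4.86-fold (edgeR adjusted p = 0.00216), and unlike the receptor it was highest at 12 h. Human-table levels of CSF1 were 5.68, 3.32 and 4.15 CPM, against 0.895 and 0.436, a log2 fold change of 1.96 ± 0.31 (edgeR adjusted p = 0.00123). Taking away the mean control ratio of human-table to pig-table counts times the pig-table count of each biopsy left -3.95, 2.93 and 5.45% of the human-table counts of CSF1, so they were close to what that ratio alone gives. IL34, the other ligand, had pig-table levels of 3.95, 5.91 and 10.03 CPM in the biopsies, against 7.05 and 6.12 in the controls, and its log2 fold change of -0.49 ± 0.35 did not pass the test (edgeR adjusted p = 0.304). IL34 in the human table did not pass either, at -0.86 ± 0.48 (edgeR adjusted p = 0.196).

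TYROBP, an adaptor protein that carries signals for receptors such as TREM1 and TREM2 in myeloid and natural killer cells, had 1459, 1490 and 1568 pig-table counts in the biopsies, against 349 in both controls. The levels were 23.1, 22.5 and 27.9 CPM, against 5.29 and 4.91, so the biopsies were close to each other and far from the controls. TYROBP rose by 1.77 ± 0.16 on the log2 scale, or 3.40-fold (edgeR adjusted p = 0.000665). Human-table counts of TYROBP were 1028, 864 and 1748 in the biopsies, against 3 and 6 in the controls, or 16.3, 13.1 and 31.1 CPM against 0.0455 and 0.0844. The gene was thus close to absent from the human table of untransplanted kidney. The log2 fold change was 7.40 ± 0.53 (edgeR adjusted p = 4.84e-05), and the pooled level in the biopsies was 299 times that in the controls, with a 95% counting interval of 157 to 654.

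Partners of TYROBP differed between the tables. TREM2, a lipid-sensing receptor of macrophages, had 99, 156 and 268 pig-table counts in the biopsies, against 16 and 22 in the controls, and rose by 2.86 ± 0.57 on the log2 scale (edgeR adjusted p = 0.00862). The call was lost without either control, at an adjusted p of 0.0882 without control replicate 1 and 0.0713 without control replicate 2. Human-table counts of TREM2 were 9, 4 and 28, against 0 and 0, and the gene did not pass the filter there. TREM1, a receptor of neutrophils and monocytes that amplifies inflammation, showed the other arrangement, with 0, 0 and 3 pig-table counts in the biopsies, against 1 and 2 in the controls. The human table held 98, 37 and 40 counts of TREM1 in the biopsies, against 0 and 0, and was at least 21.5-fold higher, taking 3 counts per control library as the floor (edgeR adjusted p = 0.0011). SYK, the kinase recruited by such adaptors, had a pig-table log2 fold change of 1.09 ± 0.38 that did not pass (edgeR adjusted p = 0.0584), though it did with DESeq2 (0.0196) and without the 12 h biopsy (0.0248). SYK rose in the human table by 4.72 ± 0.43 on the log2 scale (edgeR adjusted p = 7.23e-05). FCER1G, the adaptor of Fc receptors, rose in the pig table by 1.73 ± 0.20 on the log2 scale (edgeR adjusted p = 0.00123) and in the human table by 2.96 ± 0.25 (edgeR adjusted p = 3.89e-05).

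MSR1, a class A scavenger receptor that takes up modified lipoproteins and bacteria, had 1605, 1413 and 2315 pig-table counts in the biopsies, against 255 and 281 in the controls. Its levels were 25.4, 21.4 and 41.2 CPM, against 3.87 and 3.95, with every biopsy above both controls. MSR1 rose by 2.39 ± 0.29 on the log2 scale, or 5.25-fold (edgeR adjusted p = 0.00166). The human table held 980, 860 and 1785 counts of MSR1 in the biopsies, against 23 and 11 in the controls, or 15.5, 13.0 and 31.8 CPM against 0.349 and 0.155. Both tables showed the lowest biopsy at 24 h and the highest at 48 h. The human-table log2 fold change of MSR1 was 5.52 ± 0.47, or 45.8-fold (edgeR adjusted p = 0.000147).

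MARCO, a scavenger receptor of the same class found on subsets of tissue macrophages, was almost entirely a human-table gene. It had 12, 9 and 25 pig-table counts in the biopsies, against 2 and 0 in the controls. Its human-table counts were 327, 262 and 609, against 1 and 0, or 5.17, 3.96 and 10.8 CPM against 0.0152 and 0. For every 100 human-table counts there were 3.67, 3.44 and 4.11 pig-table counts in the biopsies, a nearly fixed share. MARCO passed the test in the pig table at a log2 fold change of 3.49 ± 1.03 (edgeR adjusted p = 0.0353), with a pooled level ratio of 17.0 and a 95% counting interval of 4.44 to 144. The pig-table call was lost without control replicate 1 (edgeR adjusted p = 0.0837) and without control replicate 2 (0.198), and the gene fell below the filter without the 12 h or the 48 h biopsy. The human-table log2 fold change was 8.76 ± 0.78 (edgeR adjusted p = 0.000116), with a pooled level ratio of 885 and a counting interval of 158 to 34976. On the pig assembly of RefSeq, MARCO overlaps a pseudogene, so its few pig-table counts are uncertain.

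CD68, a glycoprotein of lysosomes related to the LAMP proteins, showed the reverse, and was almost entirely a pig-table gene. Its pig-table counts were 2014, 1895 and 2156 in the biopsies, against 209 and 204 in the controls, or 31.8, 28.6 and 38.4 CPM against 3.17 and 2.87. CD68 rose by 2.95 ± 0.17 on the log2 scale, or 7.73-fold (edgeR adjusted p = 0.000188), with biopsies that were close together and far from the controls. Its human-table counts were 4, 3 and 9 in the biopsies, against 0 and 0 in the controls. These values lie at or just above the floor of 3 counts per library, and no fold change is given. CD68 has 2 neighbours on the pig assembly. EIF4A1, a translation factor of every cell, had 41, 30 and 24 human-table counts in the biopsies, against 14 and 15 in the controls, where its pig-table counts were 42831, 28799 and 32601, against 10120 and 9417. MPDU1, the other neighbour, had 1123, 1031 and 1064 human-table counts, against 870 and 772, so it was not low there. The part of the authors' counting in the low human-table value of CD68 was not tested.

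**Figure D2:**
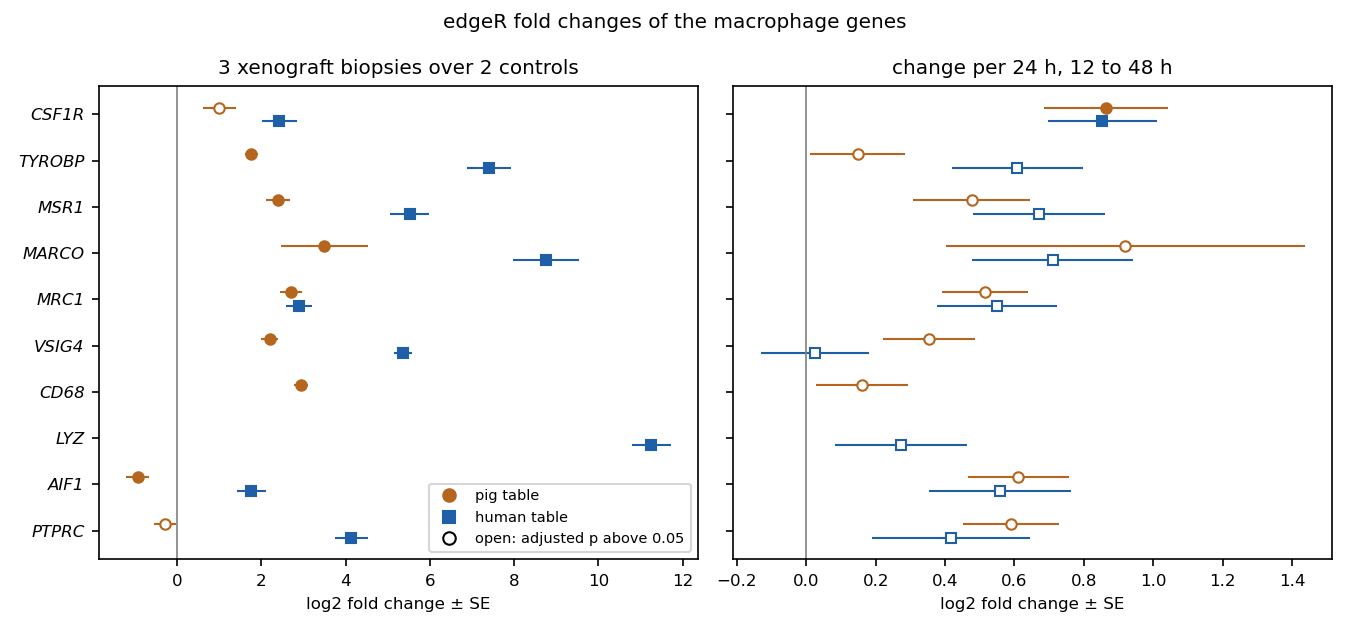
Log2 fold changes with SE from edgeR for the macrophage genes. The left panel is the 3 xenograft biopsies over the 2 controls and the right panel the change per 24 h from 12 to 48 h; circles are the pig table, squares the human table, and open symbols have an adjusted p above 0.05. Human-table values lie to the right of pig-table values on the left panel for every member tested in both, from 2.90 against 2.70 for MRC1 to 7.40 against 1.77 for TYROBP, and CSF1R alone is filled on the right panel.

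MRC1, a lectin receptor that binds mannose-bearing sugars, had 6567, 6602 and 10069 pig-table counts in the biopsies, against 1031 and 866 in the controls. Its levels were 104, 99.8 and 179 CPM, against 15.6 and 12.2. MRC1 rose by 2.70 ± 0.27 on the log2 scale, or 6.52-fold (edgeR adjusted p = 0.000947), with no overlap between the groups. Human-table counts of MRC1 were 1533, 1404 and 2497, against 196 and 120, or 24.2, 21.2 and 44.5 CPM against 2.97 and 1.69. The human-table log2 fold change was 2.90 ± 0.31, or 7.45-fold (edgeR adjusted p = 0.000243), which was close to that of the pig table. For every 100 pig-table counts, MRC1 had 23.3, 21.3 and 24.8 counts in the human table of the biopsies, against 19.0 and 13.9 in the controls. MRC1 was the member whose ratio between the tables differed least between biopsies and controls among the 7 members for which all libraries gave a ratio.

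VSIG4, a complement receptor of tissue macrophages that binds C3b, had 2434, 2981 and 3309 pig-table counts in the biopsies, against 486 and 512 in the controls. Its levels were 38.5, 45.1 and 59.0 CPM, against 7.37 and 7.20, higher at each later biopsy. VSIG4 rose by 2.20 ± 0.20 on the log2 scale, or 4.60-fold (edgeR adjusted p = 0.00072). The human table held 3003, 2280 and 2832 counts of VSIG4 in the biopsies, against 47 and 37, or 47.5, 34.5 and 50.5 CPM against 0.713 and 0.520. The human-table levels at 12 and 48 h were nearly the same. The human-table log2 fold change of 5.37 ± 0.22, or 41.3-fold (edgeR adjusted p = 1.75e-06), had the smallest SE of the 9 members tested there.

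LYZ encodes lysozyme, an enzyme that cuts bacterial cell walls and is stored by monocytes, macrophages and neutrophils. It had 10253, 7356 and 12240 human-table counts in the biopsies, against 1 and 4 in the controls, or 162, 111 and 218 CPM against 0.0152 and 0.0563. The log2 fold change was 11.26 ± 0.45 (edgeR adjusted p = 1.83e-06), and the pooled level ratio was 4409, with a counting interval of 1889 to 13580. The pig table listed LYZ at 0 in all 5 libraries, while its other macrophage genes had counts, so this symbol gives no information on lysozyme of the graft. Neutrophil markers in the human table summed to 210.1, 126 and 157 CPM at 12, 24 and 48 h, against 0.106 and 0.0844 in the controls. Most of that sum was S100A8 and S100A9, at mean levels of 50.5 and 92.2 CPM in the biopsies. The receptors CSF3R and FCGR3B had means of 6.29 and 6.53 CPM. The part of neutrophils in the LYZ value was not tested.

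AIF1, a calcium-binding protein of macrophages and microglia, and PTPRC, the phosphatase CD45 carried by all white blood cells, did not follow the other members in the pig table. AIF1 had 1477, 2086 and 2658 pig-table counts in the biopsies, against 2948 and 3298 in the controls, or 23.4, 31.5 and 47.4 CPM against 44.7 and 46.4. The 12 and 24 h biopsies lay below both controls and the 48 h biopsy was slightly above both. AIF1 fell by 0.93 ± 0.27 on the log2 scale (edgeR adjusted p = 0.0372), the only member called lower. The call was lost on leaving out the first control (edgeR adjusted p = 0.0951), the other control (0.228) or the 24 h biopsy (0.0965). On the pig assembly of RefSeq, AIF1 overlaps LST1 and NCR3, and the pig table lists neither, so its pig-table counts are uncertain. Human-table counts of AIF1 were 1775, 1225 and 2792 in the biopsies, against 355 and 369 in the controls, and AIF1 rose there by 1.77 ± 0.34 on the log2 scale, or 3.40-fold (edgeR adjusted p = 0.00603). That call too was lost without control replicate 1 (edgeR adjusted p = 0.0703) or control replicate 2 (0.0527).

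PTPRC had 925, 956 and 1532 pig-table counts in the biopsies, against 1146 and 1064 in the controls, or 14.6, 14.4 and 27.3 CPM against 17.4 and 14.96. The 12 and 24 h biopsies lay below both controls and the 48 h biopsy lay above both. The log2 fold change of -0.29 ± 0.27 did not pass the test (edgeR adjusted p = 0.428), and without the 48 h biopsy it was -0.61 (edgeR adjusted p = 0.0166). Human-table counts of PTPRC were 2104, 1212 and 2814, against 82 and 67, or 33.3, 18.3 and 50.1 CPM against 1.24 and 0.942. PTPRC rose there by 4.14 ± 0.39 on the log2 scale, or 17.6-fold (edgeR adjusted p = 0.000203), and it had more human-table than pig-table counts in every biopsy. Since PTPRC marks lymphocytes as well, T and natural killer cell markers stand beside it. Of the 9 tested in the pig table, 8 were lower and 1 was higher, beside 19% lower and 18.5% higher over all tested pig genes. Their summed level was 17.4 to 21.1 CPM in the biopsies, against 25.2 and 27.3 in the controls. All 8 tested in the human table were higher, beside 19.3% of all tested human genes. Each of these 8 had at most 6 counts in the controls together. They could pass the filter only through the biopsies, so the count is a description. The summed human-table level of the T and natural killer cell markers was 10.9 to 30.5 CPM, against 0.288 and 0.113. The part of lymphocytes in the PTPRC values was not tested.

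How the members moved within the graft was read from the change per 24 h over the biopsies at 12, 24 and 48 h. CSF1R was the only member called in either table. In the pig table it rose by 0.86 ± 0.18 per 24 h on the log2 scale, or 1.82-fold (edgeR adjusted p = 0.0352), and in the human table by 0.85 ± 0.16, or 1.81-fold (edgeR adjusted p = 0.0239). All 9 tested members had positive slopes in each table, and 0 were called lower. Of all tested genes, 3.34% of pig genes were called higher and 0.983% lower with time, as were 0.924% of human genes higher and 0.196% lower. The median slope was 0.52 over the pig members and 0.00 over all pig genes, and 0.56 over the human members and 0.02 over all human genes. The pig-table slopes of PTPRC (0.59 ± 0.14, edgeR adjusted p = 0.0525), MRC1 (0.52 ± 0.12, 0.0552) and AIF1 (0.61 ± 0.15, 0.0555) lay just past the threshold. With DESeq2 or with no filter on low counts, 4 pig members were called.

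The slopes rest on 1 biopsy per time, and the controls add only to the estimate of the spread. The pig-table call of CSF1R was lost without the 12 h biopsy, at 0.46 and an edgeR adjusted p of 0.0939, and without control replicate 1 (0.0536) or 2 (0.0527). The human-table call was lost without the 48 h biopsy, at 0.47 and an edgeR adjusted p of 0.878, and without control replicate 1 (0.14) or 2 (0.141). In the human table the order of the biopsies was alike across members, with 24 h the lowest biopsy for 9 of 10 and 48 h the highest for 10 of 10, where 54.7% of all tested human genes were lowest at 24 h and 55.7% highest at 48 h. Among the 9 pig-table members with counts, 24 h was the lowest biopsy for 6 and 48 h the highest for 9, where the shares of all tested pig genes were 41.1 and 45.6%. Human-table totals per 100 pig-table counts had the same order, at 31.2, 29.0 and 33.4.

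The gain of the graft over its controls was then set against the human-table level, gene by gene and time by time. The graft gain of a gene is its pig-table level in a biopsy less the mean pig-table level of the controls, and it was above 0 for 7, 7 and 9 of the 10 members at 12, 24 and 48 h. The human-table level, from which no control value was taken, was above the gain for 6, 4 and 5 members. LYZ was among these at each time only because its pig-table counts of 0 fixed its gain at 0, so it gives no comparison. Transcript lengths differ between genes and can differ between species, so the values are set side by side within a gene only. The members fell into 4 arrangements, which were drawn after the values were seen.

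For MSR1, TYROBP and VSIG4 the graft gain and the human-table level were of the same order at each time. MSR1 gained 21.5, 17.4 and 37.3 CPM, and its human-table level was 0.722, 0.745 and 0.852 times that gain. TYROBP gained 17.97, 17.4 and 22.8 CPM, with the human-table level at 0.905, 0.750 and 1.36 times the gain. VSIG4 gained 31.2, 37.8 and 51.7 CPM, with the human-table level at 1.52, 0.912 and 0.977 times the gain. Relative to the gain, the human-table level of VSIG4 was thus highest at 12 h, and those of TYROBP and MSR1 at 48 h.

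For MRC1, CSF1R and CD68 the graft gain was the larger value at most times. MRC1 gained 89.9, 85.9 and 165 CPM, and its human-table level was 0.270, 0.247 and 0.269 times the gain, a ratio that moved less between the biopsies than that of any other member with a gain above 0 at each time. CSF1R gained 9.59, 34.1 and 60.6 CPM, and its human-table level was 1.57, 0.471 and 0.636 times the gain, so the human-table level exceeded the gain at 12 h alone. That 12 h gain was 6.21 CPM with mitochondrial genes left out of the denominators. CD68 gained 28.8, 25.6 and 35.4 CPM beside a human-table level of 0.0633, 0.0453 and 0.160 CPM.

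LYZ and MARCO were found in the human table with little or nothing in the pig table. LYZ had a gain of 0 at each time, fixed by its pig-table count of 0, so its place here says nothing of the graft. MARCO gained 0.175, 0.121 and 0.430 CPM, and its human-table level was 29.6, 32.8 and 25.2 times that gain.

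AIF1 and PTPRC had no gain at 12 and 24 h. AIF1 had a gain of -22.2 and -14.03 CPM at 12 and 24 h and of 1.80 CPM at 48 h, while its human-table level was 28.1, 18.5 and 49.7 CPM, against 5.39 and 5.19 in the controls. With genes of the mitochondrion left out of the denominators, the gain of AIF1 was -36.9, -26.6 and -9.73 CPM, so the value at 48 h turned negative. PTPRC had a gain of -1.55 and -1.73 at 12 and 24 h and of 11.1 at 48 h, where its human-table level was 4.51 times the gain. Without the mitochondrial genes in the denominators, the gain of PTPRC was -5.72, -5.46 and 8.59 CPM.

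**Figure D3:**
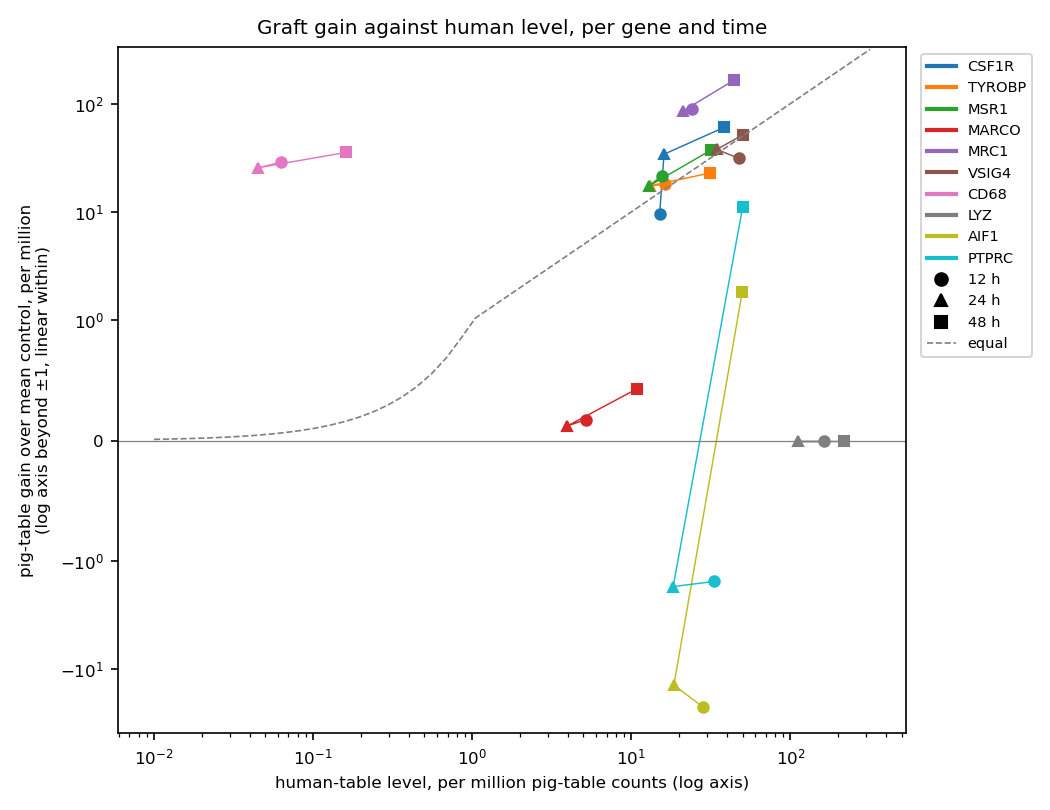
Graft gain against human-table level for each gene and time. The horizontal axis is the human-table level and the vertical axis the pig-table level less the control mean, both in CPM of pig-table counts, on log axes (linear within 1 of 0 on the vertical axis); circles, triangles and squares are 12, 24 and 48 h, and the dashed line marks equal values. MSR1, TYROBP and VSIG4 lie near the line, MRC1 and CD68 above it and MARCO below it. LYZ also lies below it, with a gain fixed at 0 by its pig-table counts of 0. AIF1 and PTPRC pass from negative gains at 12 and 24 h to gains of 1.80 and 11.1 at 48 h.

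Since control kidney already had human-table counts, the ratio between the tables was compared for each member. For every 100 pig-table counts, TYROBP had 70.5, 58.0 and 111 counts in the human table of the biopsies, against 0.860 and 1.72 in the controls. PTPRC had 227, 127 and 184, against 7.16 and 6.30, and VSIG4 had 123, 76.5 and 85.6, against 9.67 and 7.23. The ratio was above both controls in every biopsy for these and for MSR1, CSF1R, AIF1 and MRC1. Taking from each human-table count the mean control ratio of the gene times its pig-table count left 97.8 to 98.8% of the human-table counts of TYROBP, 94.7 to 97.0% of PTPRC, 89.0 to 93.2% of VSIG4 and 89.4 to 91.6% of MSR1. It left 80.2 to 90.3% of AIF1, 57.6 to 75.7% of CSF1R and 22.7 to 33.7% of MRC1. MRC1 thus kept the smallest share of its human-table counts, and TYROBP the largest, among these 7 members.

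**Figure D4:**
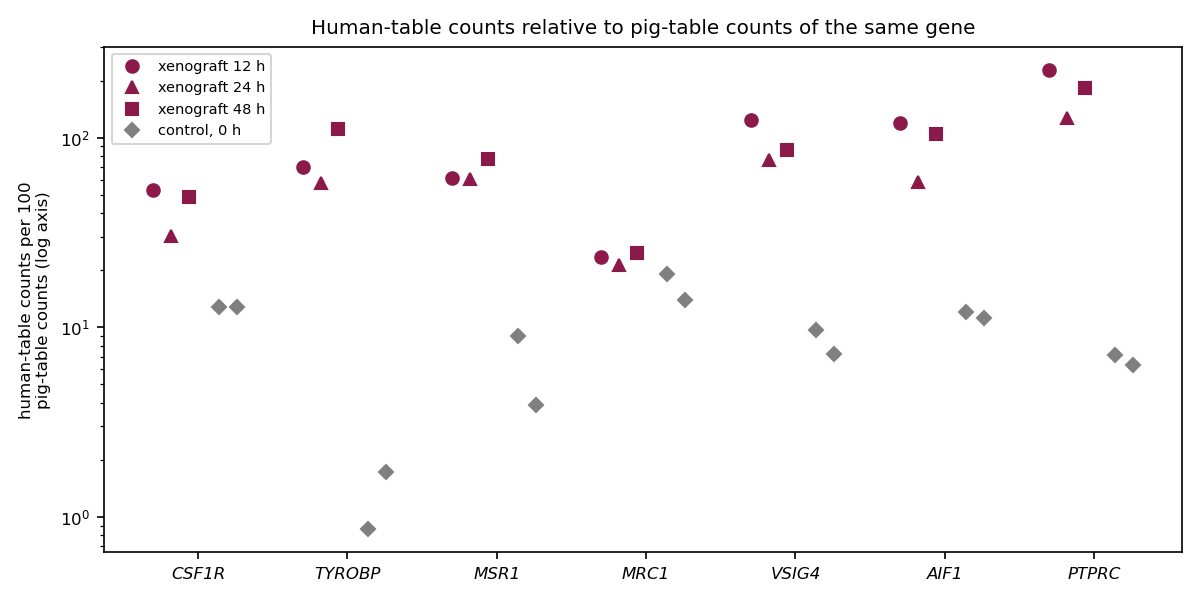
Human-table counts per 100 pig-table counts of the same gene, on a log axis, for the 7 members with counts in both tables in every library. Filled circles, triangles and squares are the xenograft biopsies at 12, 24 and 48 h, and grey diamonds are the 2 control libraries. The biopsies of TYROBP stand at 58.0 to 111, against 0.860 and 1.72 in the controls, while those of MRC1 stand at 21.3 to 24.8, against 19.0 and 13.9.

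A list of 34 other macrophage genes was read in the same fits. Of these, 28 were present in the pig table and tested, of which 15 were higher, 4 were lower and 9 did not pass, beside 18.5% higher and 19% lower over all tested pig genes. The median log2 fold change was 1.51, and 0.03 over all tested pig genes. SLC11A1, a metal transporter of phagosomes, rose by 4.71 ± 0.63 on the log2 scale (edgeR adjusted p = 0.00219). CD163, the scavenger receptor for haemoglobin bound to haptoglobin, had pig-table levels of 209, 269 and 296 CPM, against 12.0 and 10.6, and rose by 4.02 ± 0.20 (edgeR adjusted p = 0.000166). GPNMB, a lysosomal glycoprotein also made outside macrophages, rose by 3.36 ± 0.21 (edgeR adjusted p = 0.000267). CD14, the co-receptor for endotoxin, rose by 2.73 ± 0.16 (edgeR adjusted p = 0.000188). The 4 genes called lower were CX3CR1, MAF, FOLR2 and MERTK.

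CX3CR1, the receptor for fractalkine carried by resident macrophages and some lymphocytes, had 8, 7 and 29 pig-table counts in the biopsies, against 182 and 172 in the controls, and fell by 3.90 ± 0.62 on the log2 scale (edgeR adjusted p = 0.00417). MAF, a transcription factor of macrophages that other kidney and immune cells also use, fell by 1.83 ± 0.26 (edgeR adjusted p = 0.0027). FOLR2, a folate receptor of tissue macrophages, had pig-table levels of 228, 214 and 140.2 CPM, against 468 and 504, and fell by 1.82 ± 0.26 (edgeR adjusted p = 0.00277). Its control mean of 486 CPM was above that of every member, of which AIF1 had the highest at 45.6 CPM. The part of other kidney cells in the FOLR2 value was not tested. MERTK, a receptor for the uptake of dying cells, fell by 0.95 ± 0.11 (edgeR adjusted p = 0.00145). In the pig table, genes of this list thus moved in both directions.

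All 34 were present in the human table and 32 were tested, of which 26 were higher, 2 were lower and 4 did not pass, beside 19.3% higher and 15.9% lower over all tested human genes. The median log2 fold change was 3.93, and 0.05 over all tested human genes. SIGLEC1, a sialic acid receptor of macrophages, had 143, 136 and 349 human-table counts in the biopsies, against 0 and 0, and was at least 80.2-fold higher (edgeR adjusted p = 0.00109). FCN1, a lectin of blood monocytes, had 2654, 1824 and 3703 counts, against 4 and 1 (edgeR adjusted p = 1.99e-05). LST1, an inhibitory protein of myeloid cells, had 739, 591 and 1246 counts, against 1 and 1 (edgeR adjusted p = 3.05e-05). CD14 had 457, 748 and 727 counts, against 1 and 1 (edgeR adjusted p = 7.03e-06). These genes were near 0 in the human table of the controls, as were LYZ, TYROBP and MARCO. Such genes could pass the filter only through the biopsies, so their part in the 26 called higher is a description. CX3CR1, lower in the pig table, had 122, 74 and 186 human-table counts, against 8 and 3. The genes called lower in the human table were MAF, by -2.14 ± 0.28 (edgeR adjusted p = 0.000856), and LGMN, a lysosomal protease that kidney tubules also make, by -0.85 ± 0.25 (edgeR adjusted p = 0.0275). MAF had 39474 human-table counts in all biopsies together, beside 42719 in the pig table, against 73295 and 78558 in the controls. The mean human-table level of LGMN was 205 CPM in the biopsies, against 216 in the controls, and the groups overlapped. The LGMN call was lost on leaving out the first control (edgeR adjusted p = 0.128), the other control (0.165) or the 24 h biopsy (0.0558), and with pig-table library sizes (0.093).

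**Figure D5:**
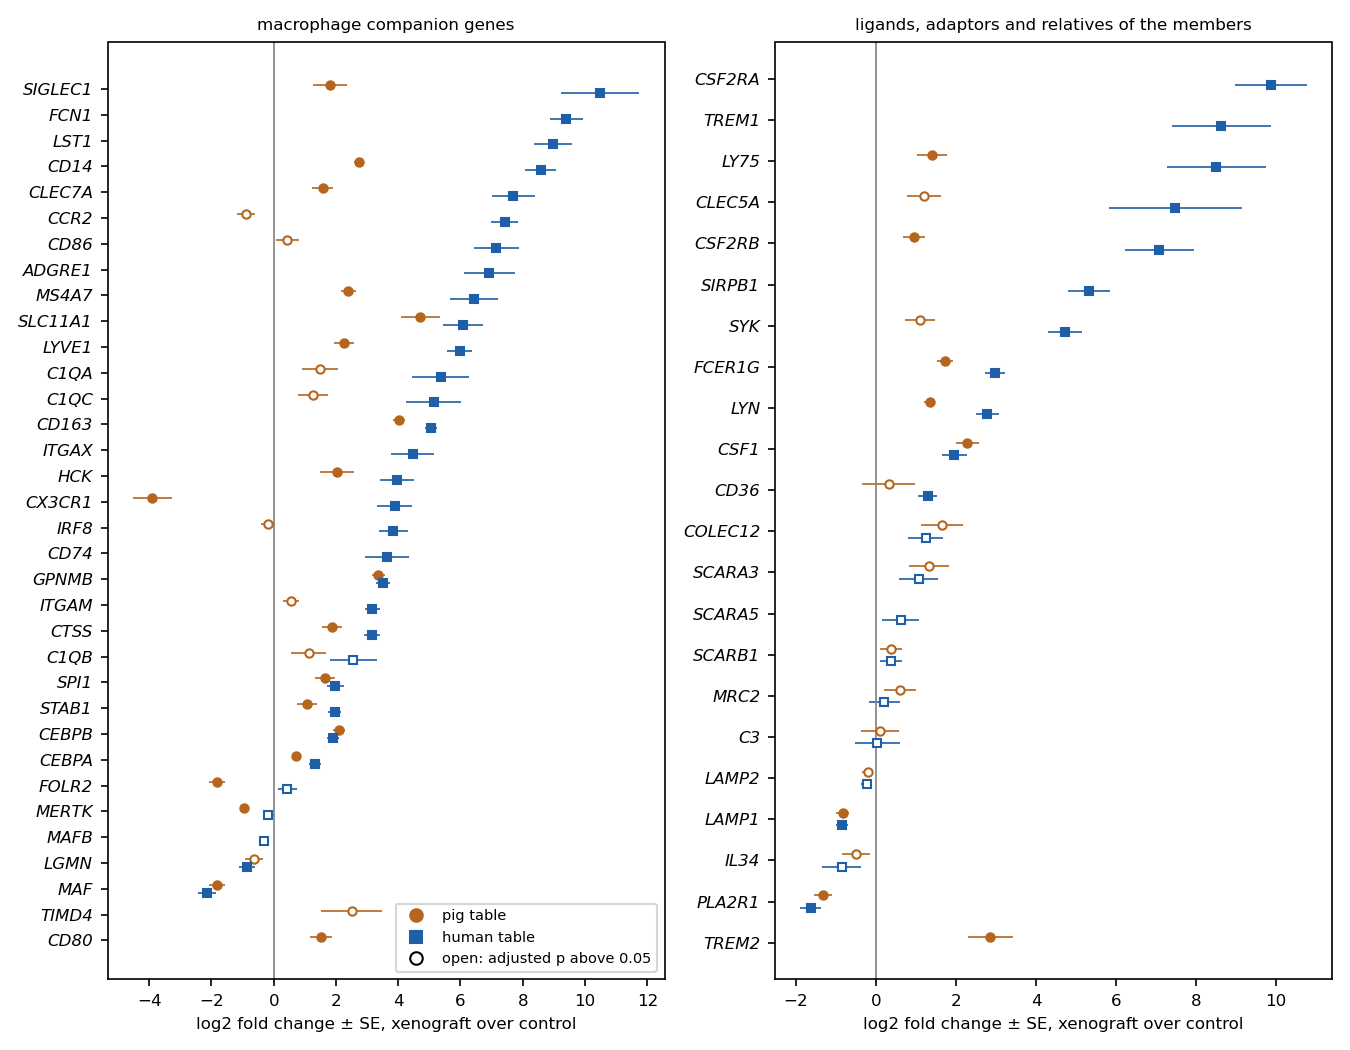
Log2 fold changes with SE from edgeR, xenograft over control, for 2 lists of genes beside the members: other macrophage genes on the left and ligands, adaptors and relatives of the members on the right. Circles are the pig table, squares the human table and open symbols have an adjusted p above 0.05; for SIGLEC1, CSF2RA, TREM1, LY75 and CLEC5A the human-table controls were at 0, so the plotted value depends on the fit's prior. CX3CR1 lies at -3.90 in the pig table and on the positive side in the human table, while MAF lies on the negative side in both.

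The other list held 23 ligands, adaptors and relatives of the members, of which the pig table held 20 and 18 passed the filter. There 6 were higher, 2 were lower and 10 did not pass, with a median log2 fold change of 1.02, beside 0.03 over all tested pig genes, of which 18.5% were called higher and 19% lower. LY75, a lectin receptor related to MRC1, rose by 1.40 ± 0.37 (edgeR adjusted p = 0.0253), a call lost without control replicate 1 (0.141) or 2 (0.166). PLA2R1, another relative of MRC1 that podocytes express, fell by 1.33 ± 0.22 (edgeR adjusted p = 0.00474). LAMP1, a lysosomal membrane protein of most cells and a relative of CD68, fell by 0.83 ± 0.17 (edgeR adjusted p = 0.00954), a call lost without control replicate 1 (0.0538) or 2 (0.107). CD68 rose in the same libraries, so the pig-table change of CD68 was not matched by that of LAMP1.

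All 23 of these genes were present in the human table and 21 were tested, of which 11 were higher, 2 were lower and 8 did not pass, beside 19.3% higher and 15.9% lower over all tested human genes. The median log2 fold change was 1.29, also with the 4 genes at 0 in the controls set to their bounds, and 0.05 over all tested human genes. Those 4 genes were CSF2RA, a receptor chain for the growth factor GM-CSF, at least 51.3-fold higher (edgeR adjusted p = 0.000103), TREM1, LY75, at least 20.2-fold higher (edgeR adjusted p = 0.00114), and CLEC5A, a myeloid lectin that also signals through TYROBP, at least 10.04-fold higher (edgeR adjusted p = 0.00994). The CLEC5A call was lost without control replicate 1 (edgeR adjusted p = 0.0653) or 2 (0.0625). At 0 in the controls, these 4 genes could pass the filter only through the biopsies, so their part in the 11 called higher is a description. PLA2R1 fell by 1.64 ± 0.26 (edgeR adjusted p = 0.0015) and LAMP1 by 0.85 ± 0.16 (edgeR adjusted p = 0.0026), much as in the pig table. The mean human-table level of PLA2R1 was 7.48 CPM in the biopsies, against 13.8 in the controls. That of LAMP1 was 33.9 CPM, against 35.3, and for both genes the groups overlapped in level.

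With time in the graft, 8 of the 28 tested pig-table macrophage genes beside the members were called higher and 0 lower, as were 4 of 32 in the human table, with 0 lower. Over all tested genes, 3.34% of pig genes were called higher and 0.983% lower, and 0.924% of human genes higher and 0.196% lower. The 4 in the human table were C1QA, C1QB and C1QC, the chains of the complement component C1q that macrophages make, and CD74, the invariant chain of antigen presentation. These 4 were named after their values were seen. C1QA had pig-table levels of 41.9, 64.9 and 174 CPM, against 22.5 and 23.8, and rose by 1.32 ± 0.14 per 24 h on the log2 scale (edgeR adjusted p = 0.00173). Its human-table levels were 17.7, 26.3 and 70.6 CPM, against 0.319 and 0.689, a rise of 1.24 ± 0.24 per 24 h (edgeR adjusted p = 0.0373), which did not pass with DESeq2 (0.632). C1QB rose per 24 h by 1.32 ± 0.14 in the pig table (edgeR adjusted p = 0.00173) and by 1.38 ± 0.19 in the human table (edgeR adjusted p = 0.00477). C1QC rose per 24 h by 1.11 ± 0.12 in the pig table (edgeR adjusted p = 0.00219) and by 1.36 ± 0.15 in the human table (edgeR adjusted p = 0.00129). CD74, absent from the symbols of the pig table, had human-table levels of 76.4, 75.6 and 268 CPM, against 6.95 and 5.71, and rose by 1.19 ± 0.16 per 24 h (edgeR adjusted p = 0.00477). Without the 48 h biopsy the human-table adjusted p was 0.163 for C1QA, 0.0657 for C1QB, 0.19 for C1QC and 0.945 for CD74, and the call of CD74 was also lost without control replicate 1 (0.0923) or 2 (0.0941).

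Among ligands and relatives, 4 of 18 in the pig table and 1 of 21 in the human table rose with time, and 0 fell in either. The shares over all tested genes were 3.34% higher and 0.983% lower in the pig table and 0.924% higher and 0.196% lower in the human table. In the pig table these were C3, the central complement component, at 1.10 ± 0.13 per 24 h on the log2 scale (edgeR adjusted p = 0.00315), SCARA3 at 1.06 ± 0.20 (0.0208), SCARB1, a receptor for high-density lipoprotein, at 0.64 ± 0.12 (0.0198), and IL34 at 0.82 ± 0.18 (0.0405). The gene in the human table was C3, at 1.35 ± 0.21 (edgeR adjusted p = 0.0101). C3 had 565 human-table counts in all biopsies together, beside 8516 in the pig table, against 239 and 4269 in the controls. The part of graft transcripts in its human-table counts was not tested. C3, SCARA3 and SCARB1 were named after their values were seen. Without the 48 h biopsy the pig-table calls of C3 (0.349), SCARA3 (0.219) and SCARB1 (0.542) were lost, and that of IL34 was lost without any one library but the 24 h biopsy, at adjusted p-values of 0.088 to 0.107. The human-table call of C3 was lost on leaving out the first control (0.108), the other control (0.111) or the 48 h biopsy (0.525).

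Markers of other blood cells were read in both tables. Human-table neutrophil markers were higher for 8 of 8 tested, beside 19.3% of all tested human genes. Each of these 8 had at most 3 counts in the controls together. They could pass the filter only through the biopsies, so the count is a description. The neutrophil markers summed to 126 to 210.1 CPM, against 0.106 and 0.0844, with CXCR2, S100A12, ELANE and CEACAM8 at 0 in the controls. S100A8 and S100A9 made up most of the sum in the biopsies. Pig-table neutrophil markers summed to 1.34 to 2.16 CPM, against 0.410 and 0.788, with ELANE at 0 throughout. Human-table dendritic cell markers summed to 5.92 to 12.6 CPM, against 0.309 and 0.470, and pig-table ones to 3.22 to 4.13, against 2.43 and 3.67. Human-table B cell markers summed to 0.363 to 1.09 CPM, against 0.0152 and 0, and platelet markers to 1.85 to 4.08, against 0.334 and 0.239. Pig-table B cell markers summed to 609.8 to 844 CPM, against 324 and 296. Of the 2 tested, 1 was called higher, beside 18.5% of all tested pig genes. It was CD79A, which made up nearly the whole sum at 609, 633 and 840.4 CPM, against 323 and 295. Pig-table platelet markers summed to 39.97 to 49.9 CPM, against 35.6 and 25.5. ITGA2B made up nearly the whole of that sum, at a mean of 42.2 CPM in the biopsies and 29.4 in the controls. PPBP had means of 0.0389 and 0.0363 CPM. Summed levels of the 10 members were 289 to 500.5 CPM in the pig table, against 111 and 117, and 250 to 525 CPM in the human table, against 10.96 and 13.3. LYZ, at 0 throughout the pig table, adds to the human-table sum alone. Without LYZ and CD68 the pig-table sum was 257 to 462 CPM, against 108 and 114. The human-table sum of the same 8 members was 139 to 307 CPM, against 10.9 and 13.3. The part of these cells in the values of members that they also express, LYZ, TYROBP, PTPRC and AIF1 among them, was not tested.

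The likeness of the members' profiles was described by the distance between centred log2 CPM of each table over the 5 libraries, where 0 means the same profile. The values were centred but not scaled, so the distance depends on the size of a gene's changes as well as on their pattern. The closest members in the pig table were MSR1 and MRC1, at 0.459, and MSR1 and VSIG4, at 0.466, while CD68 and AIF1 were farthest apart, at 4.32. The closest in the human table were CSF1R and MRC1, at 0.839, and MSR1 and VSIG4, at 0.846, while LYZ and AIF1 were farthest apart, at 9.90. The tested genes with profiles most like CSF1R were CENPH (0.183), CACNA1F (0.191) and ZNF423 (0.195) in the pig table and CCDC88B (0.175), MFSD9 (0.178) and NUDT5 (0.268) in the human table. CENPH, for example, had pig-table levels of 2.99, 5.199 and 8.73 CPM in the biopsies, against 1.82 and 1.79 in the controls. All 5 libraries enter each distance, controls included.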

How the data were processed

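The deposited values were raw read counts per gene symbol in 2 tables, one for the pig genome and one for the human genome, with no normalization left by the authors, per the file headers and the values. The submitters' processing notes name hg38. The aligner, counting tool, strand setting, annotation and any competition between the genomes in mapping are not given in the sources used here, so a read that fits both genomes may count in either table or both. The cell type field speaks of dissociated cells and the protocol of core biopsies; the protocol was followed. A set of sex-linked symbols was removed from both tables, 170 in the human and 3 in the pig table. Not every gene of the sex chromosomes was in that set: VSIG4, on the pig X chromosome, was kept.

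Genes were kept by filterByExpr (minimum count 10, minimum total 15) and tested with edgeR 4.0.16 in R 4.3.3: TMM, quasi-likelihood fit with robust prior, Benjamini-Hochberg threshold 0.05. One design compared 3 xenograft with 2 control libraries; the other fitted the change per 24 h within the xenograft, with the controls at their own mean. The SE is approximate, the size of the log2 fold change over the root of that test's F. Alternatives were DESeq2 1.42.0, RLE scaling, no filter, no robust prior, scaling without the 13 mitochondrial genes, pig-table library sizes for the human table, other denominators and each library left out. The script was tested on simulated data. The controls differed by more than counting noise, a chi-square of 218 per degree of freedom (12327 pig genes) and of 14.5 (16142 human genes). Floors of 3 counts were 0.0422 to 0.0534 CPM; intervals (95%) and floors cover counting error only.

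The members and lists were chosen with earlier results of these data known. Beside the members, named genes were CSF1, IL34, TREM1, TREM2, SYK and FCER1G, up to 4 higher and 4 lower called genes of each of 2 lists with the largest fold change, and the 3 genes nearest to CSF1R in each table. Neighbouring genes were read from RefSeq (Sscrofa11.1) within 5000 bases; no coordinates are given, since the pig annotation release is not stated.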

Additional observations from a re-analysis of the deposited data

How the results depend on the processing

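In the edgeR and DESeq2 fits of xenograft against control, the fold change of each named gene kept its sign in every alternative that gave a value; slopes, gains and level ratios that changed sign are given below. Beside the call losses given above, the counts moved by more than 1.5 times as follows. With DESeq2, 10 pig-table relatives were called higher, 4 members and 268 of all pig genes had a called slope (the 268 lower), and 77 human genes had a slope called lower. With no filter, 4 pig and 6 human members had a called slope, and 598 human genes rose and 190 fell with time. With pig-table library sizes, 5496 human genes were higher and 1701 lower, 1 companion gene was lower, and 300 human genes rose and 58 fell with time. RLE scaling, the fit without a robust prior and scaling without mitochondrial genes moved no count past that limit. Leaving out mitochondrial genes from the denominators turned the 48 h gain of AIF1 to -9.73 and the ratio of mean PTPRC pig-table levels to 0.961, and moved the gains of AIF1 and PTPRC at 12 and 24 h and of CSF1R at 12 h by over 1.5 times. Causes were not tested. No paired analysis was possible because the groups share no replicate that the labels tie together and the times have 1 biopsy each.

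Leaving out each library in turn gave, for xenograft against control in the pig table, 0 to 2 members lower, 464 to 2633 genes higher and 727 to 2633 lower, 7 to 19 companion genes higher, and 3 to 9 relatives higher and 1 to 4 lower. In the human table it gave 1551 to 3453 genes higher, 1317 to 2841 lower and 1 to 2 companion genes lower. For the slope it gave 0 to 6 pig members, 349 to 1728 pig genes higher and 83 to 1037 lower, and 0 to 8 human members, 36 to 725 human genes higher and 2 to 248 lower. Slopes per 24 h that changed sign were, in the pig table, those of CD68 (-0.19 to 0.30), MSR1 (-0.38 to 0.83) and CSF1 (-1.62 to 0.16). In the human table they were those of LYZ (-0.81 to 0.73), MSR1 (-0.22 to 1.053), TYROBP (-0.35 to 1.02), AIF1 (-0.92 to 1.19), MRC1 (-0.10 to 0.83), PTPRC (-1.44 to 1.21), MARCO (-0.49 to 1.22), VSIG4 (-0.64 to 0.31), CSF1 (-1.26 to 0.082), TREM1 (-2.65 to 0.11), SYK (-0.11 to 0.98) and FCER1G (-0.29 to 0.72). For the 8 human-table members other than CSF1R the sign turned without the 48 h biopsy.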
